A study of Mus musculus with 12 samples.

Results

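The respiratory chain of mouse prostate organoids was followed through the RNAs of its subunits, which come from the nuclear and the mitochondrial genome. Members were the rows of the deposited table whose gene name starts with Nduf, Uqcr, Cox4 to Cox8, Atp5, mt-Nd, mt-Co, mt-Cy or mt-At, with names holding "-ps" left out. This gave 104 of 24674 genes, 91 of them nuclear and 13 mitochondrially encoded. The name rule also takes in 8 Ndufaf genes, which encode assembly factors of complex I rather than subunits, and 4 nuclear rows listed as processed pseudogenes. Of the nuclear members, 85 had a mean of at least 1 TPM over all samples and 6 did not (Atp5g2, Cox4i2, Cox6a2, Ndufaf2, Ndufaf5 and Ndufaf6).

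RNA was sequenced from 12 samples of organoids, small epithelial cultures grown in a gel, derived from basal cells of the prostate of wild-type C57BL/6 mice. There were 4 groups of 3 samples: vehicle, UK5099, butyrate, and UK5099 with butyrate (the combination). UK5099 keeps pyruvate out of mitochondria by blocking its carrier, while butyrate is a short-chain fatty acid that inhibits histone deacetylases. Doses and times of these samples are not given in the labels. The labels do not say that samples of a group came from separate cultures or animals, so p-values measure only the spread between these samples, which may be technical.

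The respiratory chain passes electrons from NADH and succinate to oxygen through complexes I to IV of the inner mitochondrial membrane, and the proton gradient it builds drives ATP synthase, complex V. Complexes I, III, IV and V are assembled from subunits of both genomes, whereas complex II is encoded by the nucleus alone. The mitochondrial subunits are read from long transcripts of both strands that are cut into single RNAs, while each nuclear subunit has a promoter of its own.

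The deposited TPM behaved as fragment counts set against gene length with introns included, so levels of different genes are compared below only as fragments per exonic kilobase per 1000000 fragments. Depth was between 33251840 and 43498951 fragments per sample. Coefficients are log2 differences from vehicle on log2(TPM + 1), from 1 limma fit over all genes, and the 3 treated groups share the vehicle samples. A gene was called at a Benjamini-Hochberg adjusted p under 0.01 with a coefficient over 1 in size, and changes past the adjusted p alone are counted apart. Over the 13345 genes that averaged 1 TPM or more, the median coefficient of UK5099 was -0.12, that of butyrate -0.30 and that of the combination -0.41. Median-of-ratios scaling, called scaling below, brought these to 0.00, -0.03 and -0.03, so counts against vehicle are given on both scales. UK5099 replicate 1 and combination replicate 1 stood apart from the others of their groups. Over all genes, each differed from them by a chi-square per gene of 6.29 to 6.63 against sampling noise, where every other pair within a group gave 1.93 to 2.65, and values without each of them stand beside the results they touch. The summed TPM of 3 basal markers lay between 3507 and 3547 in vehicle, between 4486 and 4676 with butyrate and between 8067 and 10238 in both groups given UK5099. With butyrate the basal markers were split as deposited, with 2 higher and 1 lower, at -0.27, by adjusted p alone. After scaling 2 were higher and 0 lower. Among all genes 11.7% were higher and 57.6% lower as deposited, and 25.0% and 32.2% after scaling. The summed TPM of 3 luminal markers was 4132 to 4301 in vehicle, 2241 to 2487 with either drug alone and 1389 to 1576 in the combination. Their part in the results below was not tested, and in bulk samples fewer cells of a type and less RNA per cell cannot be told apart. Endothelial, neuroendocrine and muscle lists had no gene at 1 TPM, and the stromal and immune lists had 1 each. The stromal sum was at least 10.6 TPM with butyrate and the immune sum reached 97.1 TPM with the combination, against at most 2.42 and 24.8 TPM in vehicle. Of the listed endothelial markers 3 of 4 had a row in the table, of the immune ones 2 of 4, of the neuroendocrine ones 2 of 3 and of the muscle ones 2 of 4, and no marker with a row was at 0 in all samples.

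Several members share their sequence with another row, which limits what their levels mean. To show this, the first 61 bases of mt-Nd3, a complex I subunit (chrM:9459-9519 in GRCm38, plus strand), are set beside those of Gm28438, a nuclear copy of mitochondrial DNA on chromosome 1. Capitals mark the only mismatch in the 345 bases compared, T3C counted from the first base of mt-Nd3.
mt-Nd3: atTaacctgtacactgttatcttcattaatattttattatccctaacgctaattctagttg
Gm28438: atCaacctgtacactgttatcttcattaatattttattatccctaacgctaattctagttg
In vehicle the copy held 58.0% of the fragments assigned to the pair. Copies held over 10% of the fragments of 5 mitochondrial members, mt-Co2, mt-Atp6, mt-Co3, mt-Nd3 and mt-Nd4l. Their shares in vehicle ran from 50.003% for mt-Co3, whose copy Gm28437 is identical, to that of mt-Nd3, so the absolute levels of these 5 are uncertain. The split also moved between groups, from 54.6% in vehicle to 50.06% in the combination for mt-Co2 and from 52.8% to 50.04% for mt-Atp6. On fragments scaled to depth, adding copies took their combination coefficients from 0.84 to 0.70 and from 0.58 to 0.49. That of mt-Nd3 went from 0.94 to 0.89, mt-Co3 stayed at 0.76 and mt-Nd4l went from 0.43 to 0.44. For mt-Nd2, mt-Co1, mt-Nd4 and mt-Nd5 the copies held at most 0.0197%, and mt-Nd1, mt-Atp8, mt-Nd6 and mt-Cytb had none. Among the nuclear members, 22 had a copy with at least 95% identity and 15 had over 10% of their fragments in it, among them Ndufb4 with 82.0% in the pseudogene Ndufb4c, itself a member by name.

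Promoters of 4 nuclear members are printed next, from RefSeq on GRCm38.p6, each from 250 bases before to 50 after the start and read on the strand of the gene. Ndufa4 and Atp5g1 are shown because their RNA was lower in all 3 treated groups as deposited, Cox7a2l because it was higher, and Uqcr11, a small subunit of complex III, because its promoter held 3 of the motifs searched. Capitals mark the motifs, GCGCATGC (the core bound by NRF1), CCGGAAGT (GABP), ATGGCGGC (YY1) and ACGTG (the hypoxia response core), on either strand.
Ndufa4 (chr6:11907401-11907700, minus strand): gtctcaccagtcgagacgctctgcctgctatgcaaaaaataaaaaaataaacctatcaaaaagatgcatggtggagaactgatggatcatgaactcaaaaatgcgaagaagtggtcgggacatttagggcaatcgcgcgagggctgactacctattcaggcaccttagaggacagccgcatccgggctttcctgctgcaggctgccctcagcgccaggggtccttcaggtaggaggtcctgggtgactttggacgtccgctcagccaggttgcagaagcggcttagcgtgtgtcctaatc
Cox7a2l (chr17:83514284-83514583, minus strand): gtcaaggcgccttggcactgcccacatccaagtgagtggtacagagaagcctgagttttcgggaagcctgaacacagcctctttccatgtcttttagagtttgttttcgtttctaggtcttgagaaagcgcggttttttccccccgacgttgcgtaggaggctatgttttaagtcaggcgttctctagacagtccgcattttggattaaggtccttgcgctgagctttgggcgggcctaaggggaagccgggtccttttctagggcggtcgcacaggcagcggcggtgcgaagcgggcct
Atp5g1 (chr11:96075582-96075881, minus strand): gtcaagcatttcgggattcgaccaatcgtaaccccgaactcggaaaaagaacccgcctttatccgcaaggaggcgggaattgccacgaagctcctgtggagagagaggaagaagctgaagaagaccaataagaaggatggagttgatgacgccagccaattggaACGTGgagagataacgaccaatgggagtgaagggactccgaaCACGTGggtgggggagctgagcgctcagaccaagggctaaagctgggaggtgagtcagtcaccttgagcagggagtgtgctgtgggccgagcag
Uqcr11 (chr10:80406772-80407071, minus strand): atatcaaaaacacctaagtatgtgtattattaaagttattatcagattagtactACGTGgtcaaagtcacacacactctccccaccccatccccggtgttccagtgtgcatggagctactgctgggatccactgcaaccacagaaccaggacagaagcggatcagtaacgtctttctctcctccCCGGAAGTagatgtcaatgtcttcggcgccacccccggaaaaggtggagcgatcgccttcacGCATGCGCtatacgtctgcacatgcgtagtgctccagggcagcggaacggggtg
Ndufa4 and Cox7a2l held none of the 4 motifs in this window, and Atp5g1 held ACGTG only. Of the 87 protein-coding nuclear members, 72 were matched to a promoter. GCGCATGC stood in 11 of them, or 15.3%, against 3.61% of 17492 protein-coding promoters. ATGGCGGC stood in 9.72% against 3.19%, CCGGAAGT in 6.94% against 5.29%, and ACGTG in 23.6% against 20.7%. NRF1, GABP and YY1 are regulators known for binding respiratory gene promoters, and these letters are a description of the sequence, not of binding.

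In vehicle, the 13 mitochondrial members were far more abundant than the nuclear ones. Their levels ran from 383 to 5597 fragments per exonic kilobase per 1000000 fragments with a median of 1847, whereas the 85 nuclear members ran from 0.631 to 229 with a median of 26.6. The highest level was that of mt-Co1, the catalytic core of cytochrome oxidase, at 5597 ± 206 (SD, n = 3). Atp5a1 and Atp5b, the paired catalytic ring subunits of ATP synthase, led the nuclear members at 229 ± 1.74 and 228 ± 1.59, a difference within their spread. Cox8a at 149 ± 5.09 and Cox6b1 at 149, both small subunits of cytochrome oxidase, came next.

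Mitochondrial RNA stood higher against nuclear RNA in the combination than in vehicle. The ratio of summed mitochondrial to summed nuclear TPM was 23.5, 22.4 and 25.0 in the vehicle samples and 21.4, 23.2 and 22.9 with UK5099. It was 25.0, 25.6 and 23.5 with butyrate and 29.3, 31.9 and 31.0 with the combination. The 3 combination samples lay above all vehicle samples, while both single treatments overlapped vehicle. The means were 23.6 ± 1.32 in vehicle and 30.7 ± 1.33 in the combination (SD, n = 3). The mean ratio was 0.953 times that of vehicle for UK5099 and 1.05 times for butyrate. The samples that stood apart, UK5099 replicate 1 and combination replicate 1, had the lowest ratio of their groups, and without them the mean was 0.977 times that of vehicle for UK5099 and 1.33 times for the combination. Such a ratio within a sample does not depend on how samples are scaled, and it is given as a description with no test. With exonic length in place of span, the ratio was 7.17 ± 0.386 in vehicle and 9.55 ± 0.463 in the combination, 1.33 times as high. With the nuclear copies of mitochondrial genes added to summed TPM, it was 31.3 ± 1.55 and 39.9 ± 1.74, 1.27 times as high. As the ratio of geometric means without copies, which gives each member equal weight, it was 241 ± 13.5 in vehicle. The 3 treated groups gave 230.4 ± 10.4 (UK5099), 271 ± 11.7 (butyrate) and 347 ± 15.8 (combination). On that measure the butyrate samples, at 274, 280.4 and 258, also lay above the highest vehicle sample at 255.

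**Figure D1:**
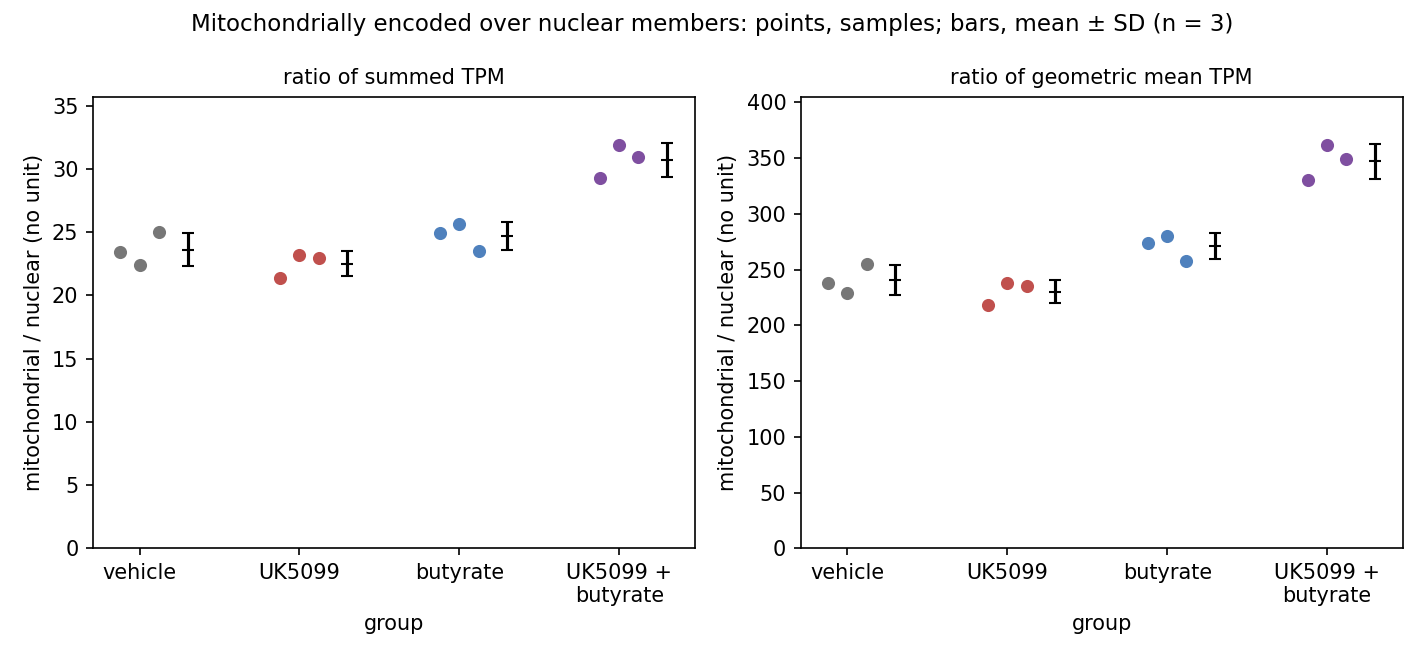
Ratio of mitochondrially encoded to nuclear members by group, as summed TPM on the left and as geometric means on the right, with points for samples and bars for the mean ± SD (n = 3). The combination samples lie between 29.3 and 31.9 on the left, above all vehicle samples, and on the right the butyrate samples lie just above vehicle.

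The nuclear members had small median coefficients whose sign depended on the scale. As deposited, butyrate gave a median coefficient of -0.09, with 9 members higher and 35 lower of 85 by adjusted p alone, against 11.7% higher and 57.6% lower among all genes. After scaling the median was 0.20, with 47 higher and 3 lower, or 55.3% and 3.53%, against 25.0% and 32.2% of all genes. For the combination, 5 were higher and 51 lower as deposited (11.2% and 64.2% of all genes), and 59 higher and 3 lower after scaling (28.2% and 34.7%). For UK5099, 2 were higher and 19 lower as deposited (12.3% and 38.1%), and 17 higher and 5 lower after scaling (21.5% and 20.1%). On both scales the nuclear median stood above that of all genes in each comparison. Among nuclear members Ndufa4l2 alone passed both limits as deposited, beside all genes called at 1.84% (UK5099), 3.54% (butyrate) and 6.42% (combination).

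More mitochondrial members were higher than lower with butyrate and the combination, on both scales, and their counts are read against the shares of all genes just given. As deposited, 5 of 13 were higher and 1 lower with butyrate, and 8 were higher and 1 lower with the combination. After scaling these counts were 9 and 0, and 13 and 0, with 4 members, mt-Nd1, mt-Nd2, mt-Nd3 and mt-Nd6, then past both limits for the combination, beside 4.59% of all genes on that scale. Without combination replicate 1, the deposited counts of the combination were 9 higher and 0 lower among mitochondrial members, and 3 and 49 among nuclear ones. In that fit 1390 of 13345 genes were higher and 8256 lower. UK5099 alone gave 0 higher and 2 lower as deposited, and 1 of each after scaling. Without UK5099 replicate 1 the deposited counts were 0 and 1, beside 1513 and 4522 of 13345 genes in that fit. The median coefficient of mitochondrial members exceeded that of nuclear members by 0.22 for butyrate and 0.57 for the combination, and lay 0.06 below it for UK5099 (a difference of -0.06, which turned to 0.00531 without vehicle replicate 3). These differences were 0.24, 0.59 and -0.05 after scaling. Under quantile normalisation they turned to -0.23 for butyrate and -0.13 for the combination. That method sets each value by its rank in its sample, so abundant RNAs differ under it only where their rank does.

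**Figure D2:**
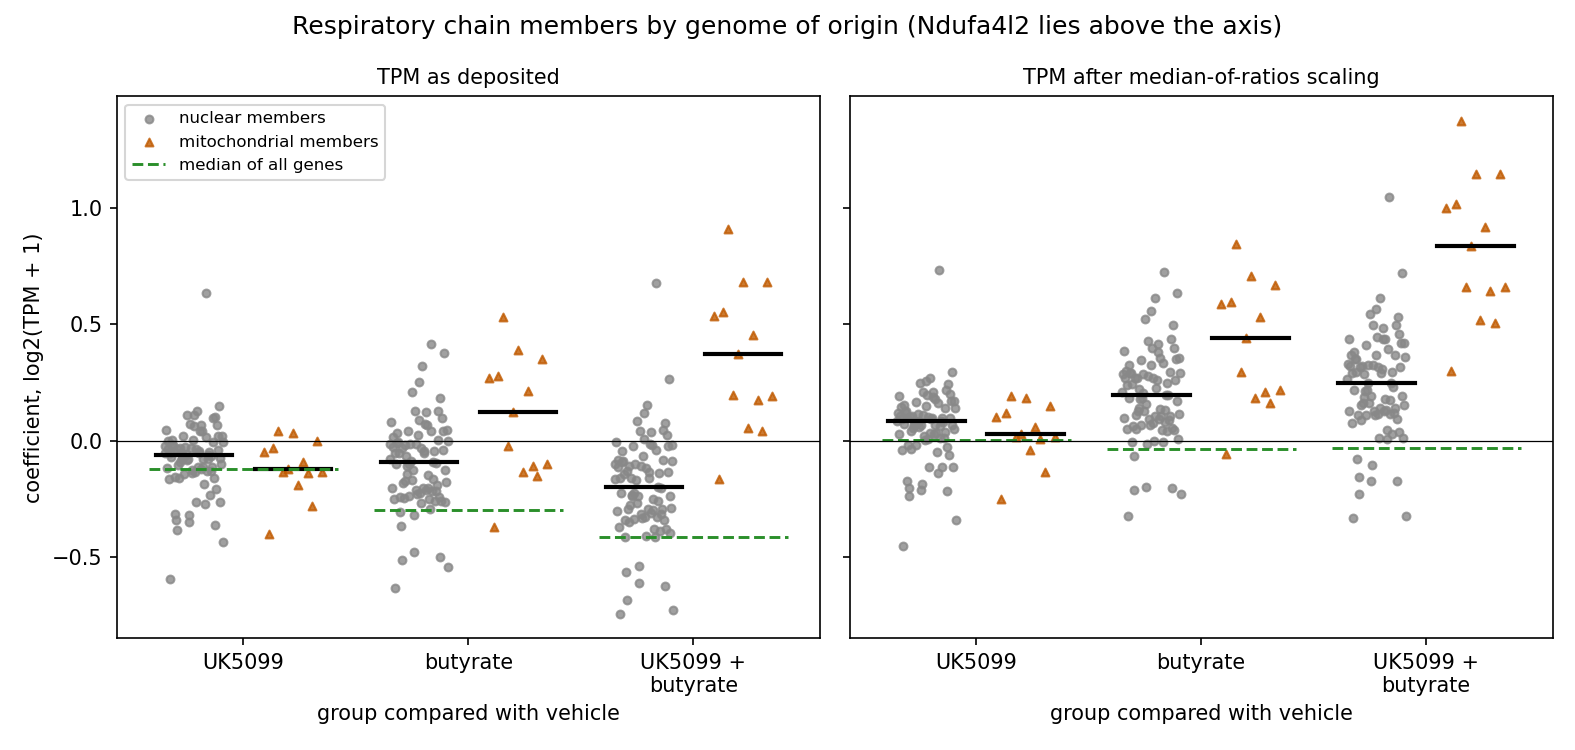
Coefficients against vehicle on log2(TPM + 1) for the members with at least 1 TPM, as deposited on the left and after median-of-ratios scaling on the right; grey points are 84 nuclear members without Ndufa4l2, orange triangles the 13 mitochondrial ones, black bars the median of each set and green dashes the median of all genes. The mitochondrial median for the combination is 0.37 on the left and 0.84 on the right, above the nuclear medians of -0.20 and 0.25.

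The complex I subunits mt-Nd1 and mt-Nd2, read first among the mitochondrial mRNAs of the heavy-strand transcript, and mt-Nd6, the only subunit read from the light strand, had the highest combination coefficients. mt-Nd2 (chrM:3914-4951) stood at 5726, 5698 and 6079 TPM in vehicle and 5286, 5898 and 5772 TPM with UK5099. It stood at 8385, 8725 and 8152 TPM with butyrate and 10421, 11426 and 10985.5 TPM with the combination. Butyrate and combination samples lay above every vehicle sample, and UK5099 overlapped vehicle. The coefficients were 0.53 ± 0.05 (SE) for butyrate, with an adjusted p of 1.02e-05, and 0.91 ± 0.05 for the combination, with an adjusted p of 1.38e-07 (limma). mt-Nd1 (chrM:2751-3707) stood at 10517, 10614.5 and 11071 TPM in vehicle and 16554, 17859.7 and 17243 TPM with the combination, without overlap, and its coefficients were 0.35 for butyrate and 0.68 for the combination. mt-Nd6 (chrM:13552-14070, minus strand) went from 5999, 6045 and 6527 TPM in vehicle to 9513, 10427 and 9845 TPM with the combination, with coefficients of 0.39 and 0.68. mt-Nd5 rose too, by 0.27 and 0.53, and mt-Nd3, which shares reads with its copy, by 0.28 and 0.55.

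The other end of the range was mt-Cytb (chrM:14145-15288), which encodes cytochrome b, the only mitochondrial subunit of complex III. It stood at 10874.5, 10568 and 11187 TPM in vehicle, 7859.8, 8543 and 8331 TPM with UK5099, and 8409, 8705 and 8111 TPM with butyrate. In the combination it stood at 9277, 10018 and 9818 TPM. All treated samples lay below all vehicle samples as deposited. Its coefficients were -0.40 ± 0.04 for UK5099 (adjusted p = 4.25e-05, limma) and -0.37 ± 0.04 for butyrate (adjusted p = 3.63e-05), and -0.16 for the combination. After scaling they were -0.25, -0.06 and 0.30, so the fall with UK5099 held on both scales, that with butyrate did not pass the test, and the combination turned to a rise. mt-Co1 stood at 29312, 27835 and 29427 TPM in vehicle and 31508, 33803 and 33669 TPM in the combination, all above vehicle, with a coefficient of 0.19 (0.66 after scaling). Its butyrate coefficient of -0.10 did not pass as deposited and was 0.22, past the adjusted p, after scaling. mt-Co2 and mt-Co3, the other mitochondrial subunits of cytochrome oxidase, had combination coefficients of 0.45 and 0.37, and those of mt-Nd4, mt-Nd4l, mt-Atp6 and mt-Atp8 lay between 0.04 and 0.19 and passed the adjusted p only after scaling. For mt-Nd4l the UK5099 coefficient of -0.28 passed as deposited, with an adjusted p of 0.00829 (limma), and not after scaling, at -0.13.

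**Figure D3:**
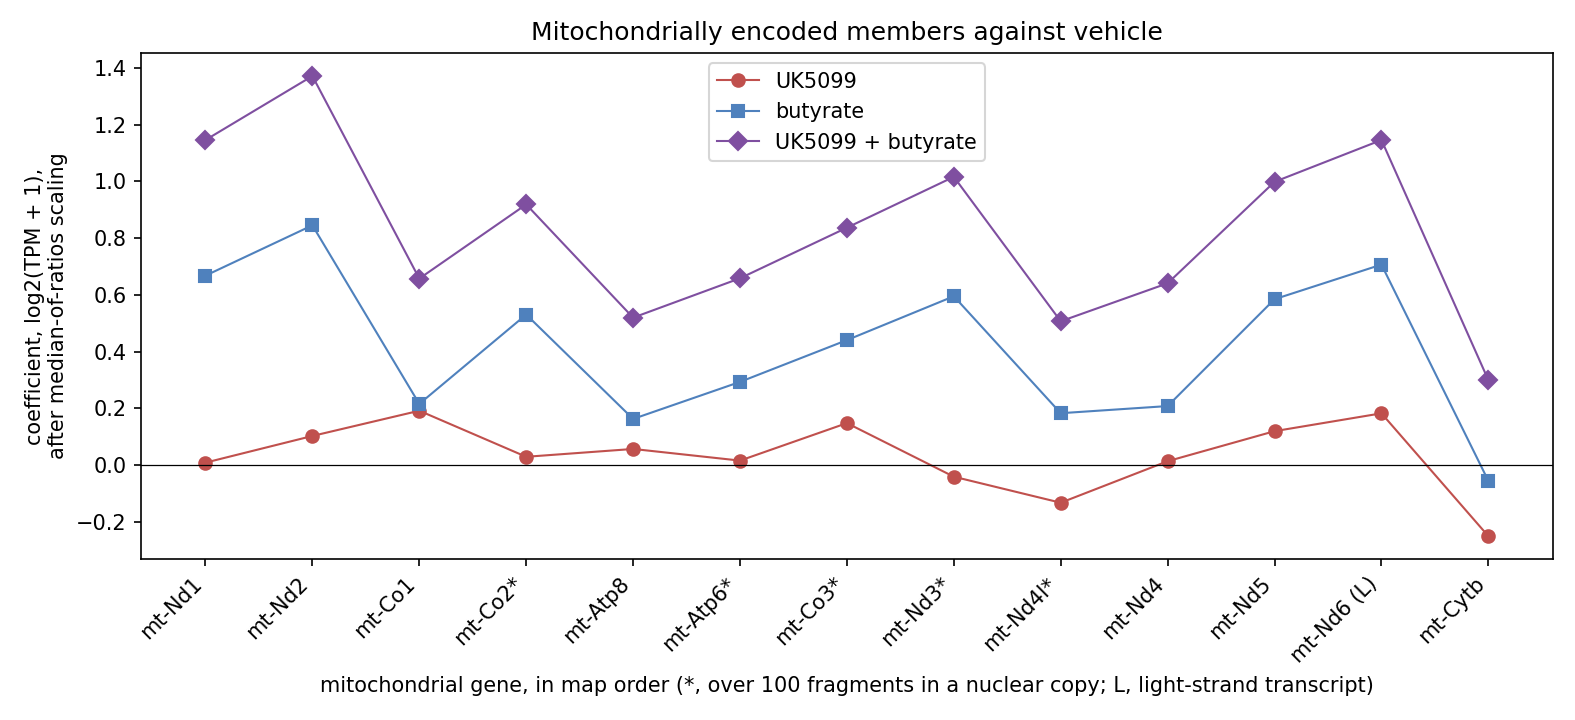
Coefficients of the 13 mitochondrial members after median-of-ratios scaling, in their order on the mitochondrial map, for UK5099 (circles), butyrate (squares) and the combination (diamonds). In the combination mt-Nd2 is highest at 1.37 and mt-Cytb lowest at 0.30, and with butyrate the same pair spans from 0.85 to -0.06.

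Across the 12 heavy-strand members the coefficient tended to be lower further along the map as deposited, in all 3 comparisons. Pearson's r and Spearman's rho were -0.54 and -0.38 for UK5099, -0.58 and -0.50 for butyrate, and -0.62 and -0.53 for the combination. These points share libraries and precursor transcripts and are a description only. The mitochondrial ribosomal RNAs, which precede mt-Nd1 on the same strand and are not members, had larger coefficients with butyrate and the combination than any of the 13 members. As deposited they were 1.55 and 2.12 for mt-Rnr1 and 0.77 and 1.17 for mt-Rnr2. The tRNA mt-Tn, a short RNA with few fragments on the minus strand, was at 1.55 and 2.45. The small ribosomal RNA, mt-Rnr1, was 2472 ± 57.4 TPM in vehicle and 3153 ± 84.7 TPM with UK5099 (SD, n = 3). It was 7240 ± 182 TPM with butyrate and 10790 ± 536 TPM with the combination. The large one, mt-Rnr2, was 6449 ± 180, 6310 ± 55.6, 10962 ± 380 and 14563 ± 693 TPM in the same order. The labels describe depletion of ribosomal RNA followed by mRNA enrichment, while the methods of the study name a kit that enriches mRNA, and the part of either in these levels was not tested.

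As deposited, the combination exceeded the sum of the separate coefficients for all 13 mitochondrial members, and for 6 of them past the adjusted p. The interaction coefficient, which is 0 where the 2 drugs add on the log2 scale, was between 0.25 and 0.61 for all 13, with a median of 0.36, and those past the adjusted p stand beside 9.67% of all genes. They were mt-Cytb at 0.61, mt-Nd1 at 0.47, mt-Nd3 at 0.46, mt-Nd4l at 0.46, mt-Nd2 at 0.42 and mt-Nd4 at 0.42. After scaling mt-Nd4l missed the threshold, with an adjusted p of 0.0105 (limma). Of the nuclear members 1 was higher and 6 lower, against 10.4% of all genes lower, and Ndufa4l2 alone was past both limits, beside 1.01% of all genes.

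Ndufa4l2 had by far the largest change of any member. It is a paralogue of Ndufa4 that is known as a target of hypoxia-inducible factor, and the table lists it as ENSMUSG00000040280 at chr10:127350836-127353023 (the labels name GRCm39). It stood at 61.9, 58.4 and 57.6 TPM in vehicle, 251, 246 and 268 TPM with UK5099, 379.8, 384 and 389.5 TPM with butyrate, and 588, 550.1 and 547 TPM with the combination. The 4 groups did not overlap. It was 4.30 times as high as vehicle with UK5099, 6.48 times with butyrate and 9.47 times with the combination. The coefficients were 2.09 ± 0.04 (adjusted p = 1.32e-09, limma), 2.68 ± 0.04 (adjusted p = 1.26e-10) and 3.22 ± 0.04 (adjusted p = 2.28e-11). Its interaction was -1.54 ± 0.06 (adjusted p = 3.13e-07, limma), so the combination fell short of the sum of both effects. Ndufa4l2 went from 0.434% ± 0.0161 of the nuclear members' fragments in vehicle to 4.63% ± 0.164 in the combination (SD, n = 3).

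Ndufa4, once placed in complex I and now known as a subunit of cytochrome oxidase, moved the other way. It stood at 54.4, 54.4 and 54.0 TPM in vehicle, 41.5, 41.5 and 41.0 TPM with UK5099, 34.9, 33.9 and 35.2 TPM with butyrate, and 32.4, 33.4 and 34.4 TPM with the combination. Every treated sample lay below every vehicle sample. Its coefficients were -0.38, -0.63 and -0.68, each with an SE of 0.02, and were -0.24, -0.32 and -0.23 after scaling, all past the adjusted p. Per exonic length, Ndufa4l2 was 0.418 ± 0.0148 times as abundant as Ndufa4 in vehicle, 2.36 ± 0.124 times with UK5099, 4.24 ± 0.0850 times with butyrate and 6.45 ± 0.445 times with the combination, so the order of the pair turned in every treated group.

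**Figure D4:**
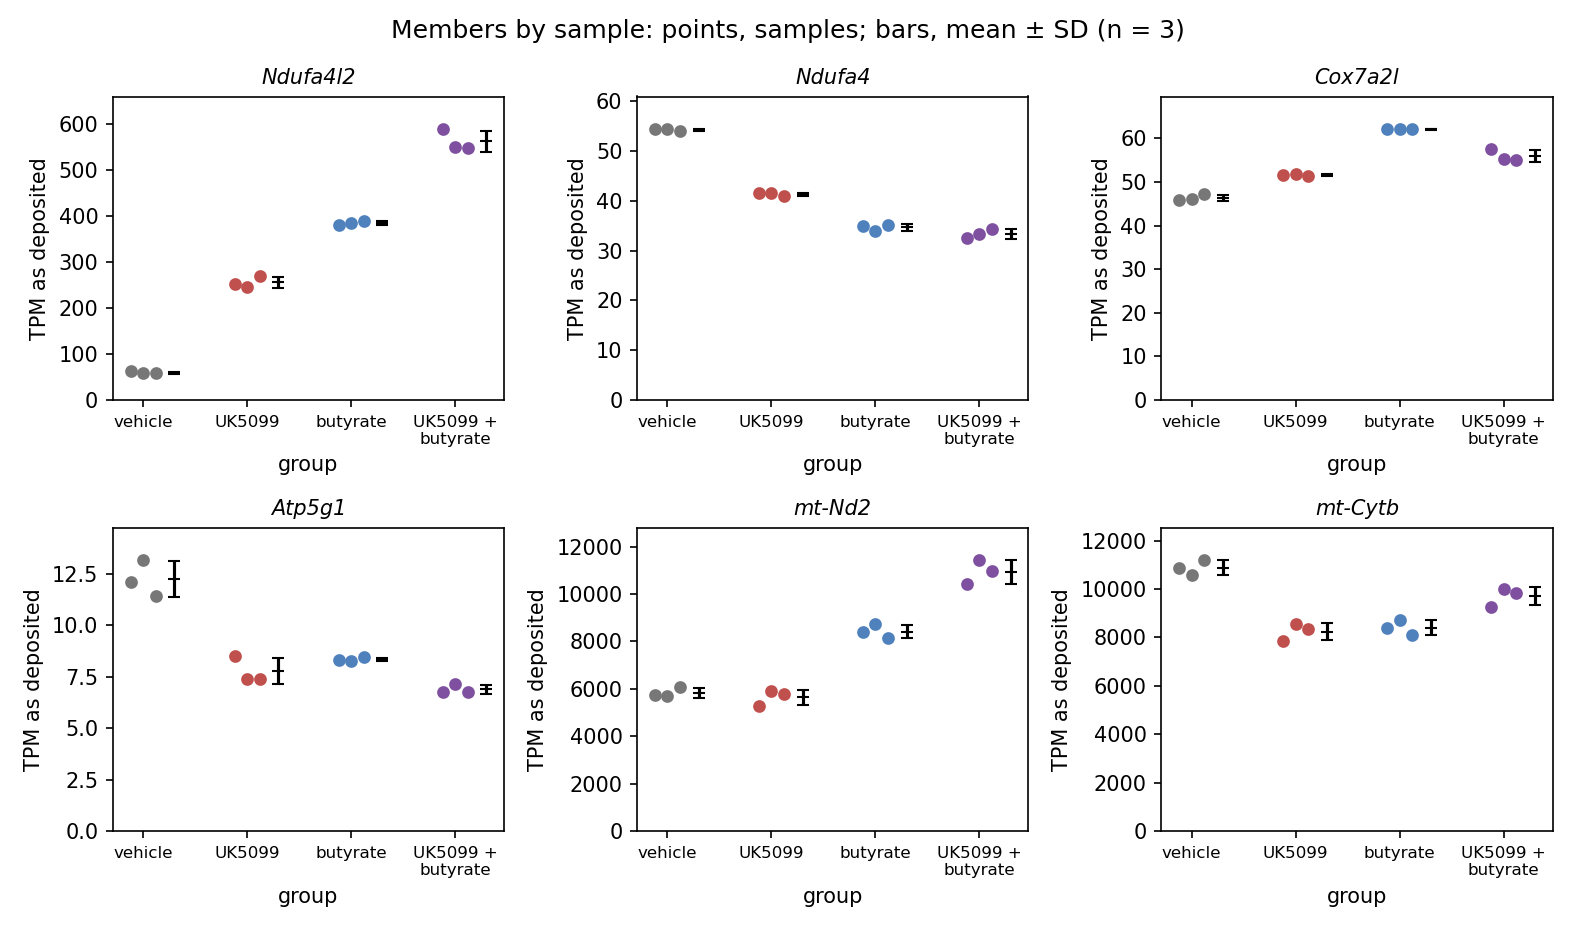
TPM as deposited in each sample for Ndufa4l2, Ndufa4, Cox7a2l, Atp5g1, mt-Nd2 and mt-Cytb, with points for samples and bars for the mean ± SD (n = 3) of each group. Ndufa4l2 steps up from 59.3 in vehicle to 562 in the combination while Ndufa4 steps down from 54.3 to 33.4, and mt-Nd2 and mt-Cytb move apart.

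In complex I, which takes electrons from NADH, 42 of 45 nuclear genes had at least 1 TPM. With butyrate 2 were higher and 21 lower as deposited, against 11.7% and 57.6% of all genes. After scaling 18 were higher and 1 lower, against 25.0% and 32.2%. The 7 core subunits, which hold the flavin and iron-sulphur clusters, all fell in the combination as deposited, with a median of -0.29. Among all genes the median was -0.41 and 64.2% were lower. After scaling 4 core subunits rose, with a median of 0.16, beside 28.2% of all genes higher. Ndufc2, an accessory subunit, was 36.3 ± 0.510 TPM in vehicle and 23.3 ± 0.762 TPM with the combination (SD, n = 3), lower in every treated sample than in any vehicle sample. It fell by 0.36 with UK5099 and by 0.62 with the combination, and the scaled values of -0.22 and -0.17 passed the adjusted p as well. Ndufa2, another accessory subunit, went from 65.7 ± 0.986 TPM in vehicle to 51.4 ± 3.08 with UK5099 and 44.8 ± 1.37 with butyrate, and fell after scaling too, with coefficients of -0.20 and -0.23. Ndufv3, a small subunit beside the NADH site, rose from 27.5, 26.6 and 26.2 TPM in vehicle to 32.2, 32.1 and 31.9 TPM with butyrate, with coefficients of 0.25 as deposited and 0.56 after scaling. Of the 5 assembly factors with at least 1 TPM, Ndufaf4 fell furthest, from 7.71 ± 0.0699 TPM in vehicle to 4.26 ± 0.192 TPM with the combination (coefficient -0.73), and its scaled value of -0.33 did not pass, with an adjusted p of 0.0104 (limma). Ndufb4, an accessory subunit that loses most reads to its copy, had a UK5099 coefficient of 0.11, which did not pass.

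Complex III carries electrons to cytochrome c, and all 8 nuclear genes with a Uqcr name had at least 1 TPM. Its cytochrome c1 gene falls outside the name rule and is given with the partners below. With butyrate 3 of the 8 were higher and 3 lower as deposited, against 11.7% and 57.6% of all genes. After scaling 7 were higher and 1 lower, against 25.0% and 32.2%. Uqcr10 and Uqcrq, both small subunits, parted. Uqcr10 stood at 91.7, 94.5 and 92.9 TPM in vehicle and 113, 119 and 118 TPM with butyrate, without overlap, with coefficients of 0.32 as deposited (adjusted p = 9.05e-05, limma) and 0.63 after scaling. Uqcrq stood at 89.3, 95.2 and 91.3 TPM in vehicle and 61.7, 64.9 and 66.1 TPM with butyrate, with coefficients of -0.51 and -0.20, both past the adjusted p.

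Complex IV, cytochrome oxidase, has subunits with tissue isoforms, and the broadly expressed forms were the abundant ones. Of its 16 nuclear genes 14 had at least 1 TPM. With the combination 2 were higher and 7 lower as deposited, against 11.2% and 64.2% of all genes. After scaling 10 were higher and 1 lower, against 28.2% and 34.7%. In fragments per exonic kilobase per 1000000 fragments, Cox4i1 stood at 138 ± 3.26 in vehicle (SD, n = 3), whereas its partner Cox4i2 was listed at 0 in all 3 vehicle samples and at no more than 0.0334 TPM in any sample. On the same exonic scale Cox6a1 was at 128 ± 1.61, against 0.0410 ± 0.0446 for the muscle form Cox6a2. Cox7a2 was at 62.0 ± 1.17, against 0.982 ± 0.372 for the muscle form Cox7a1. None of the 3 coefficients of Cox7a1 against vehicle passed the adjusted p. Cox6b2, the testis form of Cox6b1, stood at 3.48, 2.63 and 3.22 TPM in vehicle and 4.94, 5.02 and 6.82 TPM in the combination, a coefficient of 0.68 ± 0.17 (adjusted p = 0.00694, limma) that fell short of the threshold in 8 of the 12 fits that each left out 1 sample. On the exonic scale it was at 0.709 ± 0.0996 in vehicle, against 149 ± 5.06 for its partner Cox6b1. As deposited, Cox4i1, Cox6b1 and Cox7a2 fell with the combination, by 0.23, 0.14 and 0.16, and after scaling they rose, with 0.23, 0.31 and 0.30, so their direction depends on the scale. Cox7a2l, a factor that joins complexes III and IV into supercomplexes, was higher on both scales in all 3 groups. It stood at 45.9, 46.1 and 47.2 TPM in vehicle, 51.6, 51.9 and 51.4 TPM with UK5099, 62.07, 62.07 and 62.2 TPM with butyrate, and 57.5, 55.4 and 55.0 TPM with the combination. No treated sample reached down to vehicle. The coefficients were 0.15, 0.41 and 0.27, each with an SE of 0.02, and the interaction was -0.30 (adjusted p = 3.71e-05, limma), and the combination samples lay below the butyrate samples as deposited. After scaling the butyrate and combination coefficients were both 0.72.

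In complex V, 16 of 17 nuclear genes had at least 1 TPM. With the combination 0 were higher and 10 (62.5%) lower as deposited, against 11.2% and 64.2% of all genes. After scaling, against 28.2% and 34.7%, 13 were higher and 1 lower. That 1 was Atp5g1, one of 3 genes for the same c-ring protein. It stood at 12.1, 13.2 and 11.4 TPM in vehicle, 8.50, 7.41 and 7.40 TPM with UK5099, 8.30, 8.28 and 8.45 TPM with butyrate, and 6.78, 7.16 and 6.78 TPM with the combination, below vehicle in every treated sample. Its coefficients were -0.59, -0.50 and -0.74, and -0.45, -0.21 and -0.32 after scaling, where the butyrate value did not pass (adjusted p = 0.0108, limma). Its pseudogene copy Gm10039 held 47.8% ± 2.61 of the pair's fragments in vehicle and 51.2% ± 1.52 in the combination. Atp5g3, another gene for the same protein, stood at 72.8 ± 1.36 on the exonic scale in vehicle. Atp5g1 stood at 3.30 ± 0.209, a level that leaves out the fragments held by its copy. The third, Atp5g2, could not be measured, since 99.3% of fragments of its sequence were assigned to a pseudogene. In vehicle these were 4675 fragments, against 33.6 for Atp5g2, so which of the 3 genes is most abundant is not known. The 5 subunits of F1, the catalytic part, all rose after scaling with butyrate and with the combination, with medians of 0.18 and 0.15. Among all genes 25.0% and 28.2% were then higher. As deposited 3 of the 5 fell with butyrate and 4 with the combination, against 57.6% and 64.2% of all genes. Atp5h, a stalk subunit with 58.2% of fragments in its copy, had a UK5099 coefficient of 0.13 that passed only after scaling, at 0.27.

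Partners of the chain that fall outside the name rule are given by counts. Complex II, the succinate dehydrogenase with 4 nuclear genes, had a median of -0.34 with butyrate as deposited, with 0 higher and 3 lower, and 1 gene higher and 1 lower after scaling. Sdhd, its membrane anchor, was the lowest there at -0.15 and Sdhc, the other anchor, the highest at 0.33. Cycs, which encodes cytochrome c, fell by 0.53 with butyrate as deposited and by 0.22 after scaling. Cyc1, which encodes cytochrome c1 of complex III, was at -0.36 as deposited and -0.04 after scaling. Of the 19 complex IV assembly genes with at least 1 TPM, 8 were higher and 2 lower with butyrate after scaling, and 3 and 4 as deposited, with Coa7 lowest at -0.45 and Cox14 highest at 0.52. Of 5 complex III assembly genes 3 were higher and 0 lower after scaling, with Bcs1l, which inserts the Rieske protein, at 0.71, and 2 and 2 as deposited. Of 7 complex I assembly genes outside the rule 3 were higher and 0 lower after scaling, and 0 and 4 as deposited. Of 5 for complex V, 1 was higher and 0 lower after scaling, and 0 and 1 as deposited. Among all genes with butyrate, 25.0% were higher and 32.2% lower after scaling, and 11.7% and 57.6% as deposited.

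Genes that make and process mitochondrial RNA, and regulators of the nuclear subunits, are read against those shares for butyrate and, for UK5099, against 21.5% higher and 20.1% lower after scaling and 12.3% and 38.1% as deposited. Of 15 genes for mitochondrial transcription and DNA, 5 were higher and 3 lower with butyrate after scaling, and 3 and 9 as deposited. After scaling, Polrmt, the mitochondrial RNA polymerase, fell by 0.32 and Polg, the catalytic subunit of the DNA polymerase, by 0.33, while Polg2, its accessory subunit, rose by 1.48. With UK5099 after scaling 1 was higher, the primase-polymerase Primpol at 0.18, and 1 lower, Tfam at -0.17, which packs mitochondrial DNA, against 1 and 7 as deposited. Of 17 genes for mitochondrial RNA processing and stability, 4 were higher and 2 lower with butyrate after scaling, and 0 and 15 as deposited, with Elac2 highest at 0.20 and Fastkd2 lowest at -0.19 on the scaled values. With UK5099 after scaling 2 were higher, Trmt10c at 0.24 and Fastkd3 at 0.21, and 3 lower, the lowest being Supv3l1 at -0.22, against 0 and 11 as deposited. Of 9 nuclear regulators with at least 1 TPM, 3 were higher and 1 lower with butyrate after scaling, and 1 and 6 as deposited. Myc rose by 1.18 as deposited and was again highest after scaling, where Hif1a, a subunit of hypoxia-inducible factor, rose by 0.41 and Pprc1, a coactivator of the PGC-1 family, fell by 0.24. Hif1a did not pass as deposited, at 0.11. With UK5099 4 were higher and 1 lower after scaling, and 2 and 3 as deposited. The highest scaled values were Myc at 0.72 and Hif1a at 0.67, and the lowest was Gabpb1, a partner of GABP, at -0.15.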

How the data were processed

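RNA-seq of 12 organoid samples was deposited by the authors as 1 table of TPM. The submitters' processing notes list GRCm39, STAR 2.7.9a and Partek, as the methods of the study do for other samples, while its methods for these samples name RSEM and GRCm38. Which made the deposited table is not given in the sources used here. The labels describe depletion of ribosomal RNA, mRNA enrichment and dUTP second strands, whereas the methods name a kit for stranded mRNA. In the deposited TPM, low values are steps that 1 fragment would give over the span of the gene (median 11598 bp, exons 3006 bp). Of values under 1000 fragments, 66.22% to 67.46% per sample came out whole within 0.02, so the table was not treated as counts.

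limma 3.58.1 (R 4.3.3) was fitted to log2(TPM + 1) of all 24674 genes with UK5099, butyrate and their interaction, and p-values were adjusted by Benjamini-Hochberg over all genes. Fold changes on this scale understate the change of low genes. The script was tested on simulated data. Exonic lengths and transcripts came from GENCODE on GRCm38, whose 25 mitochondrial genes match the table in start and end. Copies were found with blastn 2.17.0 (at least 95% identity over 100 bases). The groups were taken from the sample titles. The members and lists were chosen with earlier results of these data known. Named genes were all mitochondrial members, the 5 highest and 5 lowest nuclear coefficients per treatment, and isoform pairs. Uqcr11 and the members named for their level were chosen after their values were seen. Replicate numbers did not pair samples: correlations of same-numbered samples ran from -0.107 to 0.0294. Alternatives were other scalings, lengths, thresholds, priors and left-out samples.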

Additional observations from a re-analysis of the deposited data

Results flagged for a closer look

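The interaction coefficient tests whether the effect of butyrate differed between samples with and without UK5099. The 9 members listed here passed it at an adjusted p under 0.01 (limma, log2 scale, 3 samples a group). Among all members with at least 1 TPM, 1 nuclear member was higher and 6 lower, and 6 mitochondrial members were higher and 0 lower. Among all genes 9.67% were higher and 10.4% lower. Of the nuclear members, Ndufa4l2 had -1.54 (adjusted p = 3.13e-07, limma) and Cox7a2l had -0.30 (adjusted p = 3.71e-05, limma), so both rose less in the combination than the separate effects add up to. Ndufa4 had 0.33 (adjusted p = 6.15e-05, limma), a smaller fall than the sum. Of the mitochondrial members, mt-Cytb had 0.61 (adjusted p = 9.62e-05, limma), mt-Nd1 0.47 (adjusted p = 0.000365, limma) and mt-Nd2 0.42 (adjusted p = 0.00242, limma). mt-Nd3 had 0.46 (adjusted p = 0.0034, limma), mt-Nd4 0.42 (adjusted p = 0.00314, limma) and mt-Nd4l 0.46 (adjusted p = 0.00868, limma). With scaling by median of ratios, mt-Nd4l gave 0.46 with an adjusted p of 0.0105 (limma).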

How the results depend on the processing

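Counts below are members past the adjusted p alone, nuclear first, and the cause of each shift was not tested. Counts of all genes beside them are of 13345 genes with at least 1 TPM, higher first, unless another total is named. Where both limits are named they are of 24674 genes. Those after median-of-ratios scaling are given above as shares. With scaling by median of ratios, UK5099 gave 17 nuclear members higher and 5 lower and 1 mitochondrial member each way, butyrate 47 and 3 with 9 and 0, and the combination 59 and 3 with 13 and 0, of which 2 nuclear and 4 mitochondrial passed both limits. Quantile normalisation gave 14 and 8 for UK5099 with 1 mitochondrial member higher, and 51 and 3 with 1 and 3 for butyrate. For the combination it gave 52 and 7 with 2 mitochondrial members lower, and 2 nuclear members passed both limits. Counts of all genes were 2495 and 2970 for UK5099, 3262 and 4166 for butyrate, and 3418 and 4957 for the combination. Of these contrasts the combination had 655 and 458 genes past both limits. Under quantile normalisation the mitochondrial minus nuclear median was -0.20 for UK5099 and turned to -0.23 for butyrate and -0.13 for the combination. Scaling to nuclear protein-coding genes gave 1 mitochondrial member lower for UK5099, and 30 and 6 with 0 lower for butyrate. The combination gave 19 and 16 with 0 mitochondrial members lower and 1 past both limits. Counts of all genes were 1692 and 4758 for UK5099, 2423 and 5727 for butyrate, and 2257 and 6875 for the combination. Past both limits the combination had 836 and 1011 genes. Exonic length gave 1 mitochondrial member lower for UK5099, and 17 and 15 for butyrate. The combination gave 10 and 32 with 0 mitochondrial members lower and 1 past both limits. Of 13060 genes, 1725 and 4638 passed for UK5099, 2044 and 6549 for butyrate, and 1868 and 7668 for the combination. Past both limits the combination had 718 and 1272 of 23913 genes. Fragments scaled to depth gave 10 and 11 for UK5099, and 51 and 4 with 11 and 0 for butyrate. The combination gave 49 and 7 with 13 and 0, of which 3 passed both limits. Counts of all genes were 2409 and 4037 for UK5099, 3555 and 4549 for butyrate, and 3337 and 5646 for the combination. Past both limits the combination had 1220 and 973 genes. With the fragments of copies added, an alternative chosen after seeing the data, the butyrate counts were 52 and 4. The other member counts were equal to those of fragments scaled to depth. Fits of 6 samples gave 1 mitochondrial member lower for UK5099, and 2 nuclear members higher and 0 mitochondrial lower for the combination. Counts of all genes in these fits were 1284 and 4011 for UK5099 and 1348 and 8197 for the combination. An adjusted p limit of 0.05 gave 4 and 32 with 4 lower for UK5099, with no count of all genes given here at that limit. A pseudocount of 0.1 gave 0 mitochondrial members lower for the combination, beside 8496 of all genes lower. The ratio of mitochondrial to nuclear RNA over vehicle was 1.41 by fragments and 1.44 by geometric means for the combination, and 1.13 by geometric means for butyrate.

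Some named members turned in direction. For the combination, median-of-ratios scaling gave Cox4i1 0.23, Cox7a2 0.30, Cox6b1 0.31 and mt-Cytb 0.30, and fragments scaled to depth gave 0.15, 0.22, 0.24 and 0.22, with or without copies. Quantile normalisation gave Cox4i1 0.0425, Cox7a2 0.25 and Cox6b1 0.29, and for butyrate Ndufc2 0.0437 and mt-Nd5 -0.0740. That method sets each value by its rank in its sample, and the combination coefficient of mt-Co1 vanished under it (-7.47e-15) rather than turned. The protein-coding scale gave Cox7a2 0.0566, Cox6b1 0.0749 and mt-Cytb 0.0554.

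Leaving out 1 sample at a time, the UK5099 difference between mitochondrial and nuclear medians ran from -0.0874 to 0.00531 (the latter without vehicle replicate 3), UK5099 had 1 to 2 mitochondrial members lower, and the combination had 0 to 1 mitochondrial members lower and 2 to 5 nuclear members higher. Of 13345 genes, 4452 to 5017 were lower for UK5099 in these fits. For the combination 8231 to 8544 were lower and 1387 to 1503 higher. Combination calls lost in some of these 12 fits were those of Uqcr10 (10 fits, coefficients 0.12 to 0.17), Cox6b2 (8 fits, 0.55 to 0.75), mt-Cytb (6 fits, -0.19 to -0.13), Cox6b1 (4 fits, -0.17 to -0.11), Ndufv3 (3 fits, 0.0969 to 0.15) and mt-Co1 (3 fits, 0.17 to 0.23). The UK5099 call of mt-Nd4l was lost in 8 (-0.33 to -0.21), and the butyrate call of mt-Nd3 without vehicle replicate 2 and without butyrate replicate 3 (0.26 to 0.30 over all 12). With the replicate number as a block, UK5099 gave 4 nuclear members higher, beside 1549 of 13345 genes. Every other count of calls stayed within 1.5 times. Samples share only a number, so the block describes no pairing of the design.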
